A study of Arabidopsis thaliana with 8 samples.

Results

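Transcripts that moved the same way when LHP1 was lost and when BPC4 and BPC6 were lost were described across 4 genotypes of Arabidopsis thaliana. They comprised 243 of 22716 probe sets, 181 higher and 62 lower in both mutants than in wild type. A probe set is a group of short array probes read as 1 intensity. It was counted as raised if the mean log2 intensity of lhp1-4 and that of bpc4 bpc6 each lay at least 0.8 above the wild type mean, which is 1.74-fold, and as lowered if both lay at least 0.8 below it. The same values chose the members, so changes of either mutant against wild type are given here as a description and support nothing.

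LHP1, in full LIKE HETEROCHROMATIN PROTEIN 1, carries a chromodomain, binds trimethylated histone H3 and takes part in silencing by the Polycomb group, which keeps developmental genes off in tissues where they are not used. BPC4 and BPC6 belong to the BASIC PENTACYSTEINE family, plant proteins that bind repeats of GA in DNA. The title of the series links both through the recruitment of LHP1 to GAGA motifs by BPC6. No binding data were used here, and whether LHP1 or BPC6 binds the genes behind the members was not tested.

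The groups were the triple mutant lhp1-4 bpc4 bpc6, the lhp1-4 mutant, the bpc4 bpc6 double mutant and wild type, each with 2 arrays. All were untreated Col-0 shoots of 18-day-old plants from a greenhouse with an 18 h light period, and 1 array was made from a pool of 6 plants. lhp1-4 and bpc4 bpc6 are called the component genotypes below, since the triple mutant joins their lesions. Pools were labelled as biological replicates, and p-values measure the spread between such pools. In whole shoots a change in the share of a cell type and a change in RNA per cell cannot be told apart.

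Probe sets keep their array identifiers, as neither the table nor the reference used here links them to genes. For that reason no gene, pathway or cell type marker could be named, the transcripts of LHP1, BPC4 and BPC6 were not checked against the genotype labels, and the labelled tissue was not checked against markers. Median intensity per array was 54.7 to 58.3 over the 8 arrays, and replicates correlated at 0.993 to 0.997 across probe sets. Intensities of 1000 or more are stored divided by 1000 in the deposited table, as inferred from its values, and were restored before use. A rescaled value was held by 31 of the 181 raised and 2 of the 62 lowered members, against 7.76% of all probe sets.

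The raised members had median intensities under 50 in wild type. On the first and second array their median intensity was 179 and 158 in the triple mutant, 129 and 121 in lhp1-4, and 118 and 81.6 in bpc4 bpc6, against 46.2 and 39.0 in wild type. Every mutant array thus had a higher median than either wild type array, and the second bpc4 bpc6 array had the lowest of the mutant medians. Wild type intensity was under 20 in 48 raised members, or 26.5%, and 1000 or more in 3.

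The lowered members were brighter in wild type. Their median intensity was 40.6 and 38.7 in the triple mutant, 33.3 and 33.1 in lhp1-4, and 48.0 and 46.6 in bpc4 bpc6, against 103 and 108 in wild type. Wild type intensity lay between 100 and 1000 in 28 of them and under 20 in 2. The identifiers did not set the members apart by array design: 7 raised and 1 lowered probe set carried the suffix _S_AT, which marks probes shared by several transcripts, and 4.11% of all probe sets carried it.

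**Figure D1:**
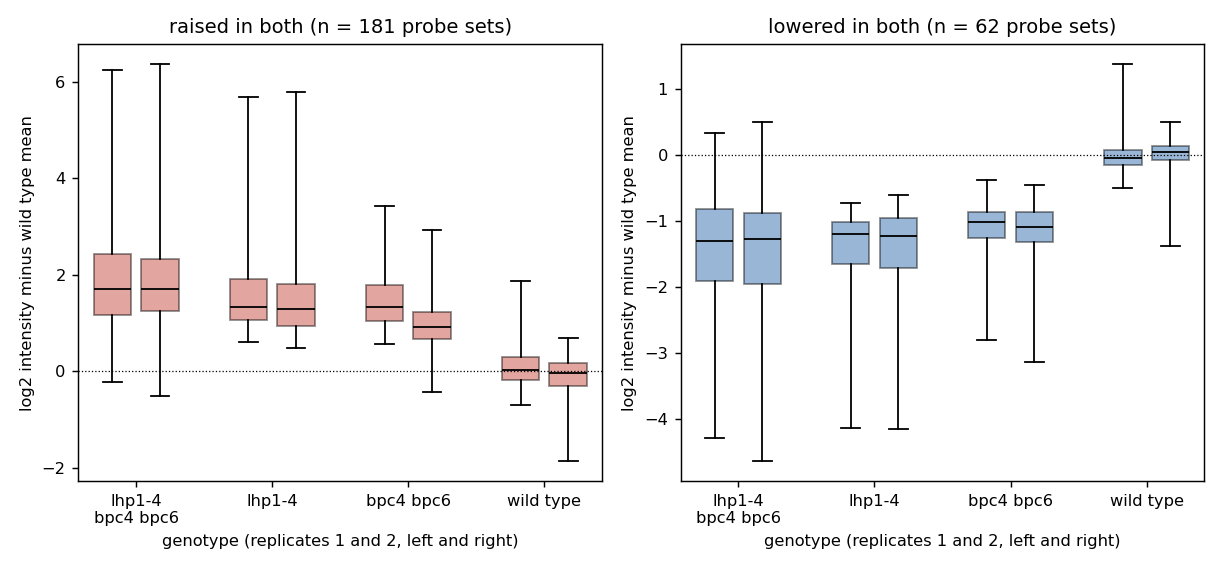
Log2 intensity of the raised (left panel) and lowered (right panel) members on each of the 8 arrays, relative to the wild type mean of the same probe set; boxes span the quartiles, the line is the median, and whiskers reach the lowest and highest member. Medians of the raised members lie between 0.92 and 1.72 on the mutant arrays, and those of the lowered members between -1.30 and -1.01.

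The changes that defined the members were larger in lhp1-4 than in bpc4 bpc6. Among raised members the log2 change against wild type had a median of 1.31 in lhp1-4 and 1.14 in bpc4 bpc6, and ranged up to 5.73 and 2.68. In 124 of the 181 the lhp1-4 change was the larger one. Among lowered members the medians were -1.18 in lhp1-4 and -1.01 in bpc4 bpc6, the largest changes -4.15 and -2.98, and lhp1-4 had the larger change in 44 of 62. Both component genotypes lay within 0.5 of each other on the log2 scale in 118 raised and 42 lowered members.

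The members were a larger part of the bpc4 bpc6 changes than of the lhp1-4 changes, which follows from the shorter bpc4 bpc6 lists. Of all probe sets, 741 lay 0.8 or more above wild type in lhp1-4 and 410 in bpc4 bpc6, so the 181 raised members were 24.4% of the lhp1-4 list and 44.1% of the bpc4 bpc6 list. Below wild type the lists held 323 and 209 probe sets, and the 62 lowered members were 19.2% and 29.7% of them. Both lists were measured against the same 2 wild type arrays, and a wild type value that happened to be low or high moves both in the same direction. Opposite changes of 0.8 or more were found in 16 probe sets, 6 of them up in lhp1-4 and down in bpc4 bpc6. In all 16 the triple mutant mean lay on the side of lhp1-4, which was not tested. It also did so in 550 of 554 probe sets up, and 248 of 251 down, by 0.8 or more in lhp1-4 only.

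**Figure D2:**
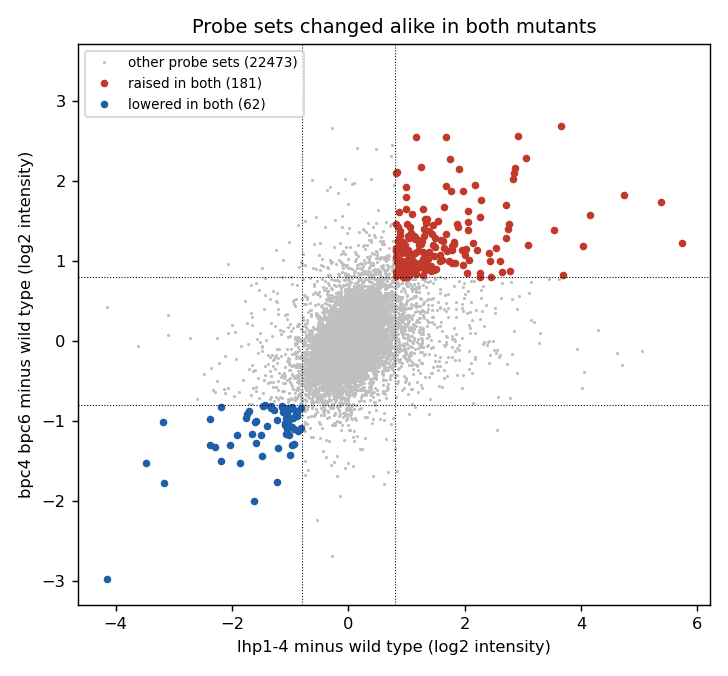
Log2 change of each probe set in lhp1-4 (horizontal axis) and in bpc4 bpc6 (vertical axis) against the same wild type arrays; dotted lines mark 0.8 and -0.8. The 181 raised and 62 lowered members fill 2 corners by construction, and the other corners hold 16 probe sets.

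Not every member was called in both mutants one by one. A limma adjusted p under 0.05 against wild type was reached by 104 raised members in lhp1-4 and by 62 in bpc4 bpc6, where 3.53% and 0.964% of all probe sets were called higher. It was reached by 47 and 32 of the lowered members, where 2.48% and 0.841% of all were called lower. In both mutants at once 56 raised and 31 lowered members were called, against 0.405% and 0.282% of all probe sets. Because the members were chosen on these changes, nothing is read from the shares. At the boundary the 3 raised members nearest to the threshold had a smaller change of 0.801, 0.802 and 0.803, and the nearest probe sets outside had 0.796, 0.794 and 0.794. The lowered members nearest to it had 0.804, 0.805 and 0.806, and those outside 0.796, 0.788 and 0.786.

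Replicates differed more among raised members than elsewhere. The median absolute log2 difference between replicates of raised members was 0.37 in the triple mutant, 0.20 in lhp1-4, 0.42 in bpc4 bpc6 and 0.44 in wild type. Over all probe sets it was 0.14, 0.10, 0.11 and 0.15 in the same genotypes. The wild type arrays differed by more than 1 on the log2 scale in 31 raised members, or 17.1%, against 1.21% of all probe sets, and in 4 lowered members. All 4 arrays of the component genotypes lay above both wild type arrays in 160 of the 181 raised members, where 8.92% of all probe sets did so, and below both in 59 of the 62 lowered members, where 15.1% did. With each wild type array taken on its own, both changes stayed at 0.8 or more in 93 raised and 37 lowered members.

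The number of members depended on the wild type arrays and on both bpc4 bpc6 arrays. Without wild type replicate 1 the same rule gave 287 raised and 86 lowered probe sets, which held 148 and 52 of the members. Without wild type replicate 2 it gave 227 and 171, which held 126 and 47. Without bpc4 bpc6 replicate 1 it gave 140 and 64, which held 121 and 50, the fewest raised members kept without any single array. Without bpc4 bpc6 replicate 2 it gave 224 and 58, which held 172 and 52. Dropping any lhp1-4 or triple mutant array gave 174 to 187 raised and 62 to 65 lowered probe sets.

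The members with the largest changes in both mutants show both kinds of data. Raised probe set 263539_AT had 122 and 347 in the triple mutant, 699 and 331 in lhp1-4, and 376 and 161 in bpc4 bpc6, against 139 and 10.5 in wild type. Its first wild type array lies within the range of the triple mutant and just below bpc4 bpc6, so it led the list through the second wild type array alone. Probe set 245465_AT had intensities of 80.0 and 56.7 in the triple mutant, 128 and 104 in lhp1-4, and 70.4 and 116 in bpc4 bpc6, against 17.2 and 13.6 in wild type. Here all mutant arrays lay at least 3-fold above both wild type arrays, and the triple mutant was not the highest genotype.

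The leading lowered members were tighter. Probe set 247878_AT had 6.91 and 5.43 in the triple mutant, 7.69 and 7.67 in lhp1-4, and 19.4 and 15.4 in bpc4 bpc6, against 151 and 122 in wild type. The triple mutant and lhp1-4 shared the lowest level, and bpc4 bpc6 stood between them and wild type. Both low genotypes lay near the dimmest settled values on their arrays, which were 3.64 to 4.09. Probe set 260070_AT had 18.4 and 15.9 in the triple mutant, 26.6 and 32.5 in lhp1-4, and 75.8 and 78.7 in bpc4 bpc6, against 247 and 285 in wild type. No 2 genotypes overlapped in this probe set.

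Whether the triple mutant went further was asked first of its level against wild type. It lay on the same side of wild type as both component genotypes in all 181 raised and in 59 of 62 lowered members. Over all probe sets the triple mutant mean lay above wild type in 8194, or 36.1%, and below it in 14522. Its median log2 change was 1.73 among raised members and -1.30 among lowered members, against -0.091 over all probe sets. limma called 145 raised members higher in the triple mutant, where 11.5% of all probe sets were called higher, and 47 lowered members lower, where 12.0% were called lower. These counts are a description, since the wild type arrays had been used to choose the members. Without wild type replicate 2 the lowered count was 132 of 171.

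The mean differences of the triple mutant from the component genotypes leave the wild type arrays out. Those arrays still enter the choice of members and the spread behind the limma calls. Members had been chosen for large values in lhp1-4 and bpc4 bpc6, which works against finding the triple mutant beyond them and favours finding it short of them. The mean of the triple mutant lay above both component genotypes in 115 raised members, between them in 28 and below both in 38. By median it stood 0.27 above lhp1-4 and 0.58 above bpc4 bpc6, where the medians over all probe sets were -0.0095 and -0.051. Among lowered members it lay below both in 33, between them in 8 and above both in 21, at a median of -0.07 from lhp1-4 and -0.21 from bpc4 bpc6. Both triple mutant arrays lay above all 4 arrays of the component genotypes in 64 raised members, or 35.4%, where 14.1% of all probe sets did so, and below all 4 in 9. Among lowered members 23 lay below all 4, or 37.1%, where 18.7% of all probe sets did so, and 14 lay above all 4. By mean, 174 of 287 raised and 51 of 86 lowered probe sets lay beyond both component genotypes without wild type replicate 1, and 68 of 171 lowered ones without wild type replicate 2.

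Most of these further changes were not called against lhp1-4 by limma at adjusted p under 0.05. Against lhp1-4 the triple mutant was called higher in 13 raised members, or 7.18%, where 2.18% of all probe sets were called higher. It was called lower in 0 of them by limma at adjusted p under 0.05, where 1.13% of all were called lower, and in 11 at unadjusted p under 0.05, where 9.85% of all were lower. Among lowered members 5 were called lower than lhp1-4 and 4 higher. The counts of 13 and 5 fell to 1 and 0 without either lhp1-4 array, to 4 and 1 without triple mutant replicate 1 and to 3 and 1 without triple mutant replicate 2. They stood at 24 and 6 without wild type replicate 1 and at 20 and 4 without bpc4 bpc6 replicate 2. The 4 lowered members above lhp1-4 became 0 to 2 without any 1 array of the triple mutant or lhp1-4 or without wild type replicate 1, and the 0 raised members below it became 4 and 3 without wild type replicate 1 and 2, and 1 without triple mutant replicate 2.

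Against bpc4 bpc6 more probe sets were called, among members and among all. The triple mutant was called higher in 59 raised members, or 32.6%, where 10.5% of all probe sets were called higher, and lower in 6, where 10.9% of all were called lower. In the 59 members the difference ranged from 0.50 to 5.08 on the log2 scale with a median of 1.16. Among lowered members 19 were called lower than bpc4 bpc6, or 30.6%, and 6 higher. The differences of those 19 ran from -2.52 to -0.71. The 59 became 35 without bpc4 bpc6 replicate 1 and 37 without triple mutant replicate 1, and the 19 became 32 without wild type replicate 1. The 6 raised members below bpc4 bpc6 became 20 and 16 without wild type replicate 1 and 2. The 6 lowered members above it became 3 without bpc4 bpc6 replicate 2, and numbered 13 when wild type replicate 2 was left out.

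**Figure D3:**
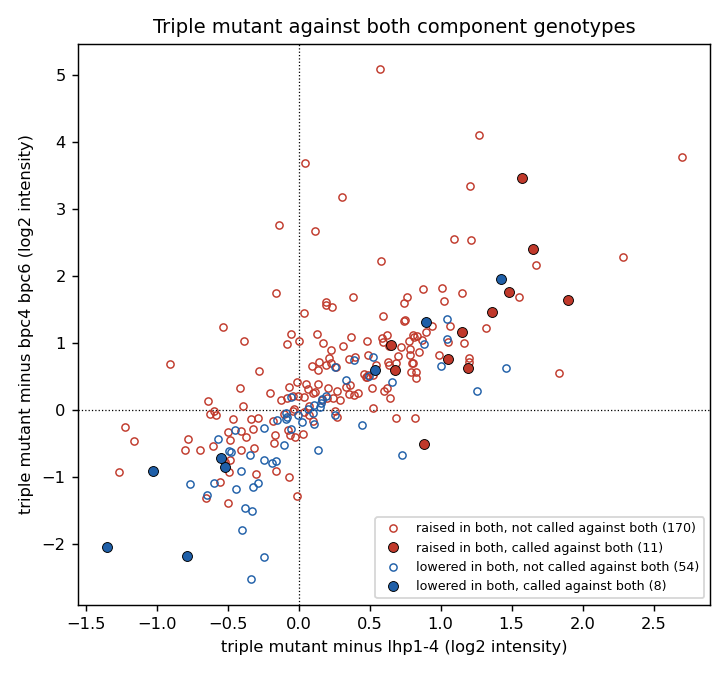
Log2 difference of the triple mutant from lhp1-4 (horizontal axis) and from bpc4 bpc6 (vertical axis) for each member; red is raised, blue is lowered, and filled points have a limma adjusted p under 0.05 in both comparisons. Of the 11 filled red points 10 lie in the upper right, and of the 8 filled blue points 5 lie in the lower left and 3 in the upper right.

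Beyond both component genotypes at once, the triple mutant was called in 10 raised members, or 5.53%, where 2.09% of all probe sets were called higher than both, and in 5 lowered members, or 8.06%, where 0.951% were called lower than both. The 10 raised members stood 0.65 to 1.90 above lhp1-4 and 0.61 to 3.46 above bpc4 bpc6 on the log2 scale. The 5 lowered members stood at -1.35 to -0.52 from lhp1-4 and -2.18 to -0.71 from bpc4 bpc6. Counts without 1 array were 1 to 22 for the raised and 0 to 6 for the lowered members, lowest without either lhp1-4 array and highest without wild type replicate 1. They were 4 and 1 without triple mutant replicate 1 and 3 and 1 without replicate 2. In the other direction, 3 lowered members, or 4.84%, were called higher than both, where 2.09% of all probe sets were. Of the raised members 0 were called lower than both, where 0.951% of all were.

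Of the 10 raised members called beyond both, 267459_AT and 246302_AT had the largest further rises by the smaller of both differences. Some members not called against lhp1-4 had larger mean differences with wider errors. Probe set 267459_AT had 2298 and 1838 in the triple mutant, 518 and 590 in lhp1-4, and 545 and 796 in bpc4 bpc6, against 286 and 299 in wild type. Both triple mutant arrays lay above every other array, while the component genotypes overlapped. It exceeded lhp1-4 by 1.90 ± 0.19 on the log2 scale (SE, n = 2 each; limma adjusted p = 0.00735) and bpc4 bpc6 by 1.64 ± 0.19 (limma adjusted p = 0.00188). The call against lhp1-4 ended without lhp1-4 replicate 1 or 2, at limma adjusted p of 0.063 and 0.068.

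Probe set 246302_AT had 2252 and 2266 in the triple mutant, 780 and 665 in lhp1-4, and 526 and 345 in bpc4 bpc6, against 135 and 74.0 in wild type. The 4 genotypes did not overlap. The triple mutant exceeded lhp1-4 by 1.65 ± 0.30 on the log2 scale (SE, n = 2 each; limma adjusted p = 0.0382) and bpc4 bpc6 by 2.41 ± 0.30 (limma adjusted p = 0.00231). The call against lhp1-4 ended without either lhp1-4 array or either triple mutant array, at limma adjusted p of 0.122 to 0.226. Both of these probe sets hold rescaled values in the triple mutant, and without the restoration their directions turn.

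Of the 5 lowered members called beyond both, 251017_AT and 263498_AT had the largest further falls by the same measure, and neither holds a rescaled value. Probe set 251017_AT had 77.8 and 83.8 in the triple mutant, 238 and 178 in lhp1-4, and 365 and 302 in bpc4 bpc6, against 885 and 994 in wild type. Levels stepped down across 4 genotypes with no overlap. The triple mutant differed from lhp1-4 by -1.35 ± 0.16 on the log2 scale (SE, n = 2 each; limma adjusted p = 0.012) and from bpc4 bpc6 by -2.04 ± 0.16 (limma adjusted p = 0.000456).

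Probe set 263498_AT had 111 and 116 in the triple mutant, 233 and 229 in lhp1-4, and 212 and 213 in bpc4 bpc6, against 583 and 490 in wild type. The component genotypes lay close together here, with the triple mutant below and wild type above. It differed from lhp1-4 by -1.03 ± 0.10 (SE, n = 2 each; limma adjusted p = 0.00735) and from bpc4 bpc6 by -0.91 ± 0.10 (limma adjusted p = 0.00169). Against lhp1-4 the call of 251017_AT ended without either lhp1-4 array or either triple mutant array, at limma adjusted p of 0.0533 to 0.0652, and that of 263498_AT ended without either lhp1-4 array, at 0.0631 and 0.072.

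In other members the triple mutant fell short of the component genotypes, which the choice of members for large values in those genotypes favours. The values and tests that follow carry this limit. Among raised members the triple mutant came nearest to wild type in 253073_AT and 262883_AT. Probe set 253073_AT had 67.1 and 23.8 in the triple mutant, 58.9 and 82.3 in lhp1-4, and 83.5 and 43.1 in bpc4 bpc6, against 47.2 and 24.3 in wild type. Its replicates overlapped between genotypes, and neither difference from a component genotype was called. Probe set 262883_AT had 192 and 216 in the triple mutant, 307 and 333 in lhp1-4, and 427 and 599 in bpc4 bpc6, against 144 and 180 in wild type. It lay below bpc4 bpc6 by -1.31 ± 0.18 on the log2 scale (SE, n = 2 each; limma adjusted p = 0.00352). Its difference from lhp1-4 was -0.65 ± 0.18 (limma adjusted p = 0.115), which became 0.0448 with the replicate number as a block.

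Among lowered members 3 stood above wild type in the triple mutant by mean. The largest return was in 261395_AT, with 75.7 and 63.3 in the triple mutant, 28.7 and 23.1 in lhp1-4, and 18.6 and 17.0 in bpc4 bpc6, against 58.9 and 61.6 in wild type. Both triple mutant arrays exceeded both wild type arrays, while the component genotypes lay far below. The triple mutant differed from wild type by 0.20 ± 0.14 on the log2 scale (SE, n = 2 each), which was not called (limma adjusted p = 0.335). It was higher than lhp1-4 by 1.42 ± 0.14 on the log2 scale (SE, n = 2 each; limma adjusted p = 0.00685) and higher than bpc4 bpc6 by 1.96 ± 0.14 (limma adjusted p = 0.000313). Without lhp1-4 replicate 2 the adjusted p against lhp1-4 was 0.0664. Probe set 266072_AT had 902 and 626 in the triple mutant, 399 and 333 in lhp1-4, and 408 and 208 in bpc4 bpc6, against 718 and 714 in wild type. It was higher than bpc4 bpc6 by 1.37 ± 0.32 (limma adjusted p = 0.0234), with an adjusted p of 0.135 against lhp1-4. The call against bpc4 bpc6 ended without triple mutant replicate 1 (0.114), without bpc4 bpc6 replicate 2 (0.0644) and in a model of these genotypes alone (0.086).

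**Figure D4:**
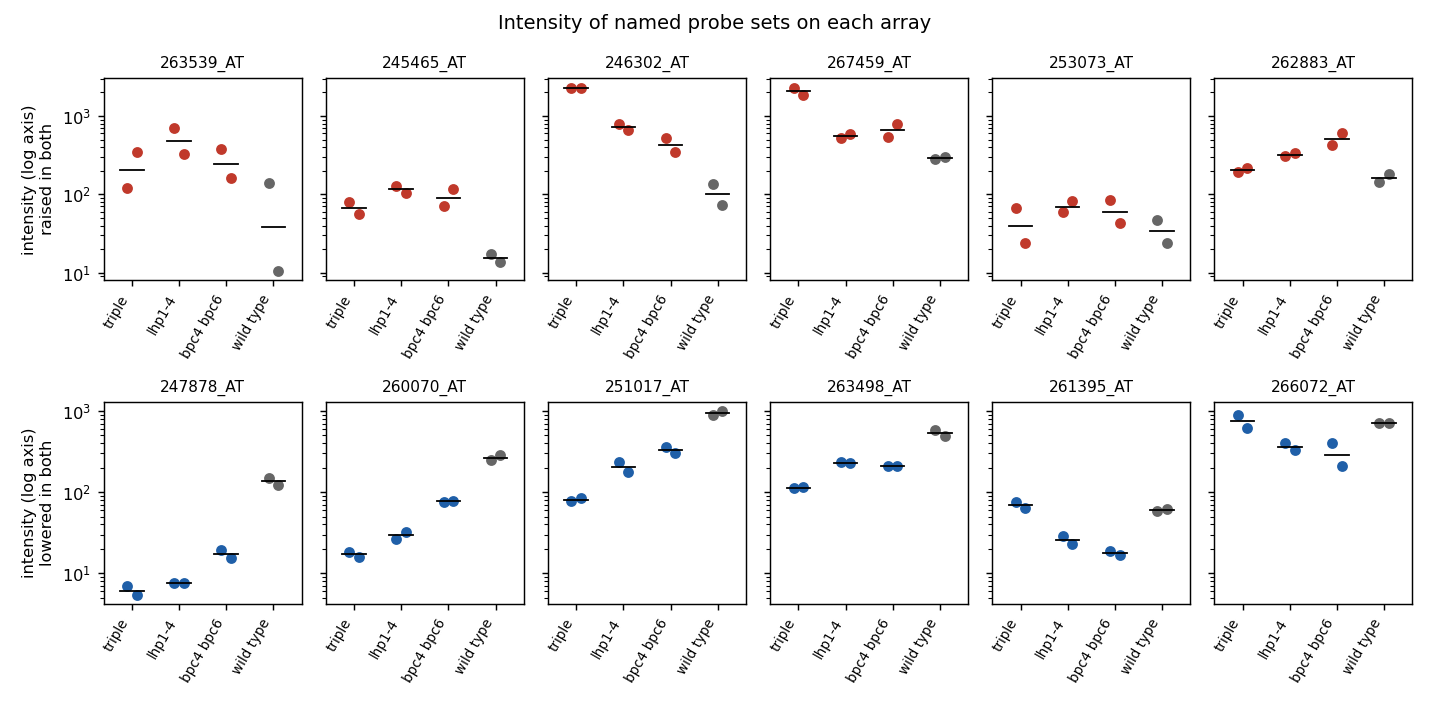
Intensity (log axis) of 6 raised (upper row) and 6 lowered (lower row) probe sets on each array; each point is 1 array, the black line is the mean of the log2 values of a genotype, and wild type is grey. From left to right each row holds the pair with the largest change in both mutants, the pair called beyond both with the largest further change of the triple mutant, and the pair in which it kept the change least.

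The triple mutant was also compared with the sum of the separate changes. The triple mutant exceeded the sum of both log2 changes in 14 raised members and in 0 of the lowered members. The interaction, which is the triple mutant plus wild type minus both component genotypes on the log2 scale, had a median of -0.88 among raised and 1.01 among lowered members, against 0.021 over all probe sets. limma called it negative in 22 raised members, where 0.792% of all probe sets were negative, and positive in 15 lowered members, where 1.54% were positive. It was called positive in 0 raised members and negative in 0 lowered members, and at unadjusted p under 0.05 in 2 and 0, where 8.1% of all probe sets were positive and 8.41% negative. The arrays that chose the members enter the interaction with the opposite sign, so the choice alone pulls it this way, and the share is not a result about the members. The 37 calls became 13 and 2 without lhp1-4 replicate 1 and 2, 21 without triple mutant replicate 1, 19 without bpc4 bpc6 replicate 2, and 22 and 80 without wild type replicate 1 and 2.

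In the 10 raised members called beyond both component genotypes, the interaction had a median of 0.05 and ran from -0.44 to 0.72. Their changes against wild type ran from 1.61 to 4.66 in the triple mutant, from 0.86 to 3.09 in lhp1-4 and from 0.86 to 2.09 in bpc4 bpc6. In the 5 lowered members called beyond both, the interaction ran from 0.15 to 1.00. Members called beyond both were picked by differences that enter the interaction, which pulls it in the direction of the change. Their interactions are therefore a description and do not show that the separate changes add up. The 38 raised members in which the triple mutant fell short of both by mean had median changes of 0.84 in the triple mutant, 1.22 in lhp1-4 and 1.33 in bpc4 bpc6.

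Members were set beside the transcripts that moved in 1 component genotype only, with 0.8 as the limit in each. The lhp1-4 only sets had thus been chosen for small changes in bpc4 bpc6. Those of bpc4 bpc6 only had been chosen for large changes there, which favours finding the triple mutant short of bpc4 bpc6. No test of the difference between these sets was made, and each set was chosen on its own arrays. Among 554 probe sets up in lhp1-4 only, 103 were called higher in the triple mutant than in lhp1-4, or 18.6%, against 7.18% of the raised members above. In the same 554 the triple mutant was called higher than bpc4 bpc6 in 79.1%, against 32.6% of the raised members, and its mean lay above both component genotypes in 73.3%, against 63.5%. Among 219 up in bpc4 bpc6 only, 105 were called lower in the triple mutant than in bpc4 bpc6, or 47.9%. This compares with 6 of 181 raised members and 10.9% of all probe sets. The median change of the triple mutant against wild type was 1.73 in raised members, 1.58 in the set up in lhp1-4 only and 0.28 in the set up in bpc4 bpc6 only. By mean it lay above wild type in 181 of 181, 550 of 554 and 142 of 219 probe sets of these sets.

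On the lowered side the sets were chosen in the same way. Among 251 probe sets down in lhp1-4 only, 29 were called lower in the triple mutant than in lhp1-4, or 11.6%, against 8.06% of the lowered members. In those 251 it was called lower than bpc4 bpc6 in 72.1%, against 30.6% of the lowered members, and its mean lay below both in 69.7%, against 53.2%. Among 141 down in bpc4 bpc6 only, 92 were called higher in the triple mutant than in bpc4 bpc6, or 65.2%. This compares with 6 of 62 lowered members and 10.5% of all probe sets. Median changes of the triple mutant against wild type were -1.30 in lowered members, -1.37 in the set down in lhp1-4 only and -0.04 in the set down in bpc4 bpc6 only. By mean it lay below wild type in 59 of 62, 248 of 251 and 74 of 141 probe sets of these sets.

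Members whose replicates lay within 0.5 of each other on the log2 scale in every genotype numbered 48 raised and 36 lowered. They were picked after their values were seen, and no test was made on them. Median changes against wild type in those 48 were 1.49 in the triple mutant, 1.14 in lhp1-4 and 1.05 in bpc4 bpc6, and the triple mutant lay above both component genotypes by mean in 31. In the 36 they were -1.35, -1.22 and -1.01 in the same genotypes, with the triple mutant below both in 23.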

How the data were processed

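Per the submitters' processing notes the intensity values had been made by the authors with RMA, a method that corrects background, equalises array distributions and condenses probes; its version is not given in the sources used here. Deposited values were linear, with none of 1000 or more. Values under 3, and those of 10 to 100 with 3 decimals, were taken as divided and multiplied by 1000. Other values of 10 to 100 were scaled if that brought them within 5-fold of a scaled one. Values of 3 to 10 took the reading within 5-fold of a settled value if the alternative was 20-fold off. If all 8 values lay there, the level was open (5007 probe sets, no member). 30 undecided probe sets and 1 control were left out. Scanner files were not used.

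Log2 values of 8 arrays entered 1 group-means model in limma 3.58.1 (R 4.3.3), with Benjamini-Hochberg adjustment over 22716 probe sets in each comparison, 4 residual degrees of freedom and 2.85 more from moderation. Precision is limited by the number of arrays. The fit was tested on simulated data. Members and lists were chosen with earlier results of these data known. Named probe sets are the first 2 in each direction by the smaller change of both mutants, by the smaller further change of the triple mutant among those called beyond both, and by its least change. Planned lists of genes, cell type markers and promoter motifs were not used, as no table links probe sets to genes. Equal replicate numbers are not stated to pair arrays.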

Additional observations from a re-analysis of the deposited data

Results flagged for a closer look

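limma called the interaction negative in 22 raised members, where 0.792% of all probe sets were negative, and positive in 15 lowered members, where 1.54% were positive. In those 22 the median interaction was -1.71 on the log2 scale, and in those 15 it was 1.59. The arrays that chose the members enter the interaction with the opposite sign, so these counts are no result about the members. Among the called raised members the largest were those of 245465_AT, -3.34 ± 0.39 (SE, n = 2 each; limma adjusted p = 0.0136), and of 264400_AT, -3.05 ± 0.56 (adjusted p = 0.0465 in limma). Probe set 264400_AT had 47.8 and 97.3 in the triple mutant, 113 and 82.4 in lhp1-4, and 172 and 182 in bpc4 bpc6, against 41.2 and 22.1 in wild type. Among the called lowered members the largest were 261395_AT, whose interaction was 3.19 ± 0.20 (limma adjusted p = 0.00487), and 247878_AT, with 2.65 ± 0.24 (adjusted p = 0.00821 in limma). In 247878_AT the triple mutant and lhp1-4, at 5.43 to 7.69, lay near the dimmest settled values on their arrays, 3.64 to 4.09, whose part in its interaction was not tested. With 2 arrays per genotype no array could be judged an outlier within its group.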

How the results depend on the processing

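Leaving out 1 array in turn gave 140 to 287 raised and 58 to 171 lowered members. Triple mutant calls against wild type then numbered 113 to 190 (raised) and 42 to 132 (lowered). Calls beyond lhp1-4 numbered 1 to 24 and 0 to 6, calls short of it 0 to 4 in both directions, calls beyond bpc4 bpc6 35 to 81 and 17 to 32, and calls short of it 4 to 20 and 3 to 13. Beyond both component genotypes, calls numbered 1 to 22 and 0 to 6, and means 83 to 174 and 30 to 68. Interaction calls numbered 2 to 80. Leaving out an array also lowers the degrees of freedom. Values as deposited gave 268 raised and 162 lowered members, 37 raised calls beyond bpc4 bpc6, 6 beyond both, 6 and 19 short of lhp1-4 and bpc4 bpc6, 7 and 12 such lowered calls, and 77 interaction calls. Probe set 246302_AT then changed by -5.46 against wild type, -8.32 against lhp1-4 and -7.56 against bpc4 bpc6, and 267459_AT by -7.15, -8.07 and -8.32, because their triple mutant values are stored divided. With a mean intensity of at least 50 there were 29 lowered members, of which 22 were called against wild type, 10 beyond bpc4 bpc6, 3 beyond both by call and 13 by mean; raised calls were 17 beyond both and 1 short of lhp1-4. In models of only the genotypes compared, lowered calls were 2 beyond lhp1-4, 2 beyond both and 3 short of bpc4 bpc6. A threshold of 0.6 gave 337 raised and 157 lowered members. Their calls were 251 and 115 against wild type, 27 and 13 beyond lhp1-4, 98 and 46 beyond bpc4 bpc6, 17 and 12 short of it, 23 and 12 beyond both, 2 raised short of lhp1-4 and 60 for the interaction, and means lay beyond both in 208 and 86. A threshold of 1.0 gave 96 and 26 members. Their calls were 74 and 20 against wild type, 27 and 11 beyond bpc4 bpc6, 2 and 2 short of it, and, raised alone, 4 beyond lhp1-4 and 3 beyond both; means lay beyond both in 60 and 15. Centring each array on its median gave 152 raised and 76 lowered members, which moves the raised share, and no count by over 1.5 times. Where a cause is not given, the cause was not tested. How far signal over background limits dim members was not tested.

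The replicate number as a block gave 1 raised call short of lhp1-4 in place of 0, and kept the other counts within 1.5 times. Replicate differences of genotypes correlated at -0.184 to 0.231 over all probe sets, so the numbers were not taken as pairs. For the triple mutant and wild type, where the correlation was -0.184, exchanging the wild type numbers, chosen after seeing the data, gave 140 raised and 47 lowered calls.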

Other observations

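Replicate differences of members were correlated between some genotypes, with either sign. Across the 181 raised members the difference between replicates 2 and 1 in wild type correlated with that in the triple mutant at r = -0.465, with that in lhp1-4 at 0.425 and with that in bpc4 bpc6 at 0.211. The difference in the triple mutant correlated with that in bpc4 bpc6 at 0.416 and with that in lhp1-4 at -0.222. Those in bpc4 bpc6 and lhp1-4 correlated at 0.223. Across the 62 lowered members the wild type differences correlated with those of the triple mutant at 0.001, of bpc4 bpc6 at 0.031 and of lhp1-4 at -0.175. In the same 62 the bpc4 bpc6 differences correlated with those of the triple mutant at 0.35 and of lhp1-4 at 0.256. Those of the triple mutant and lhp1-4 correlated at 0.098. These are correlations across probe sets of the same 8 arrays, and probe sets are not independent replicates. In bpc4 bpc6 the second array of raised members stood below the first, with a median log2 difference of -0.33, against 0.013 over all probe sets.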
